A study of Daphnia magna with 20 samples.

Results

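The libraries described here are those of water fleas exposed to dissolved lithium and cobalt and of their controls. They were chosen by title and number 10 of the 20 libraries in the series, 5 from ion-exposed animals (replicates 1, 3, 4, 5 and 6) and 5 from control animals (replicates 1, 2, 4, 5 and 6). Every library held RNA from whole wild-type Daphnia magna, a freshwater crustacean, pooled from 10 animals that were 5 days old when a 48 h exposure began. The ion group was kept in moderately hard water with 66 µg/L lithium, added as LiCl, and 15 µg/L cobalt, added as CoCl2, and the control group in the same water without them. Animals of both groups were given an alfalfa suspension during the exposure. The ion amounts were set to match those that lithium cobalt oxide (LCO), a battery cathode nanomaterial, releases at 10 mg/L, so the comparison addresses what the released ions do without the particle. The other 10 libraries came from animals exposed to LCO at 1 mg/L or 10 mg/L, 5 libraries each. Replicate 1 of LCO at 10 mg/L was placed by its title, while its treatment tag reads untreated. Mean shares of TPM, medians of called targets and tests of ions against that dose are also given without it. Ranges over the libraries of that dose include it.

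Lithium ions are known to inhibit glycogen synthase kinase 3 and enzymes of inositol phosphate recycling. Cobalt is the metal of vitamin B12, and its ions are known in animal cells to stabilise hypoxia-inducible factors by interfering with the prolyl hydroxylases that mark them for destruction. Whether genes of these pathways moved could not be looked up, because the files name transcripts ("targets") only by identifier. Of 26646 identifiers, 0 were found in the RefSeq gene table for this species. For the same reason, the label of whole animals could not be checked against tissue markers, and no function or genome position is given for any target.

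The ion libraries held between 20744445 and 29234877 estimated counts (mean 24800000 ± 3930000, SD, n = 5), and the control libraries between 24422294 and 42458093 (mean 33900000 ± 8380000, SD, n = 5). The groups overlapped in depth, but the ion libraries were on average shallower. A filter on low counts left 15304 of the 26646 targets. The tests compared the 10 libraries alone with edgeR's quasi-likelihood test, and a target was called where the Benjamini-Hochberg adjusted p lay under 0.05. Separate vessels for the pools are not recorded in the labels, so p-values measure the spread between these pools, which may be technical. Targets removed by the filter held 0.0622% to 0.084% of the count in the ion libraries, and 0.0569% to 0.145% in the control libraries other than replicate 1, in which they held 1.26%.

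Ion exposure was accompanied by a change in a large share of the measured transcripts, in both directions at similar numbers but with the deeper changes mostly downward. In all, 6425 targets were called, 42% of those tested. With ions, 3027 (19.8%) lay higher and 3398 (22.2%) lower. Most of these changes were moderate. The median log2 fold change was 0.73 among the higher targets and -0.84 among the lower ones, with median standard errors of 0.18 on the same scale for both. A stricter test asked which targets changed by more than 1.5-fold (edgeR glmTreat, adjusted p under 0.05). It called 1281 targets, 8.37% of those tested, and here 979 (6.4%) were lower and 302 (1.97%) higher. The count of 1281 changed when single pools were left out, which also leaves fewer samples. It was 2257 without ion replicate 5 and fell to 481 without ion replicate 3, 653 without ion replicate 6, 698 without ion replicate 4, 752 without ion replicate 1 and 753 without control replicate 6. Without control replicates 1, 2, 4 and 5 in turn, the count was 1051, 1010, 883 and 1584. Lower targets outnumbered higher ones in each of these. The count of 6425 was 4932 to 7201 with 1 library left out. With the replicate number as a block, on numbers 1, 4, 5 and 6 alone, edgeR called 0 targets, with a smallest adjusted p of 0.054. That block leaves fewer samples and degrees of freedom. In whole animals, fewer cells of a type and less RNA per cell cannot be told apart, and this applies to every change given here.

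The lower side led by more the larger the change. Among targets called at any size, 841 (5.5% of those tested) were higher and 1340 (8.76%) lower by over 2-fold in the fit, and 18 (0.118%) higher and 176 (1.15%) lower by over 8-fold. The count of 18 was 50 without control replicate 1 and 9 without ion replicate 3. The values of the 5 ion and 5 control libraries did not overlap for 3855 targets, 25.2% of those tested. Of these, 2340 (15.3%) lay lower with ions and 1515 (9.9%) higher. Of the targets called lower 67.7% had no overlap, and of those called higher 48.3%.

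**Figure D1:**
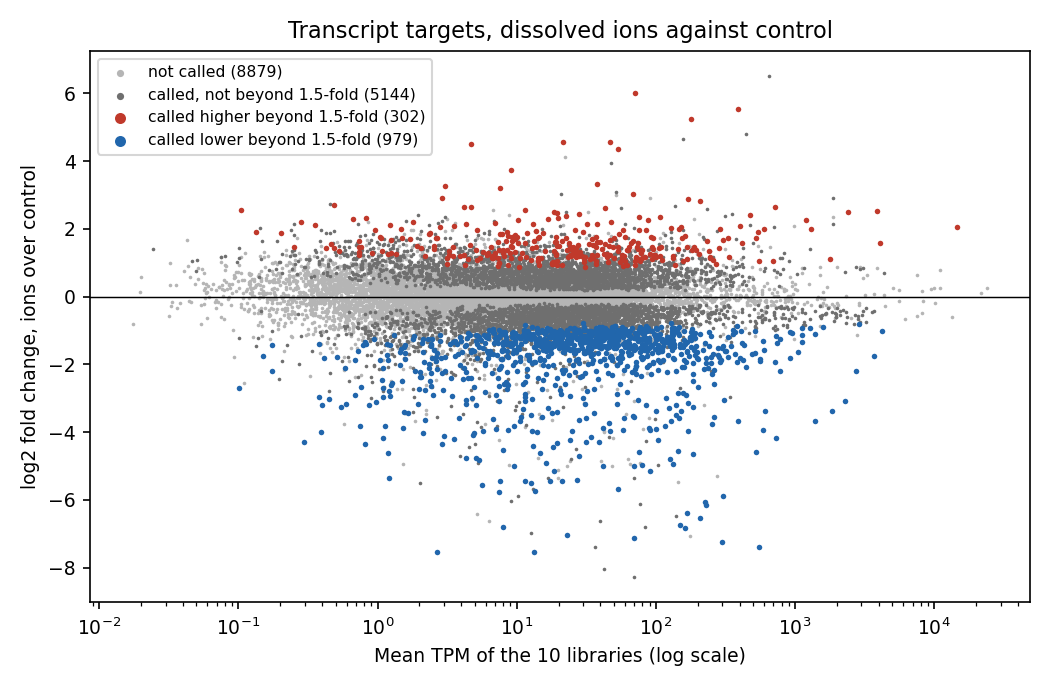
The log2 fold change of each tested target (ions over control) is plotted against its mean TPM over the 10 libraries on a log scale, with 1 point per target. The 979 targets called lower beyond 1.5-fold reach further from 0 (to -7.53) than the 302 called higher (to 6.01).

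At any size of change, the excess of lower over higher calls was largest among the most abundant transcripts. Beyond 1.5-fold, lower targets outnumbered higher ones at every level of abundance. TPM, the relative number of transcripts, is scaled by target length and allows levels of different targets to be compared. The tested targets were ranked by mean TPM into 10 classes of equal size. In the most abundant class (mean TPM 85 to 24000), 37.4% were called lower and 22.8% higher, and beyond 1.5-fold 234 were lower and 62 higher. In the least abundant class (mean TPM under 0.961), 11.2% were called higher and 5.68% lower, and beyond 1.5-fold 20 were higher and 26 lower. Over all tested targets, 19.8% were called higher and 22.2% lower, and beyond 1.5-fold 1.97% and 6.4%. Counts, and with them the precision of a fold change, increase with abundance, so the totals called in different classes are not comparable as effects. The median log2 fold change was -0.15 in the most abundant class and 0.18 in the least abundant, against 0.0037 over all tested targets.

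**Figure D2:**
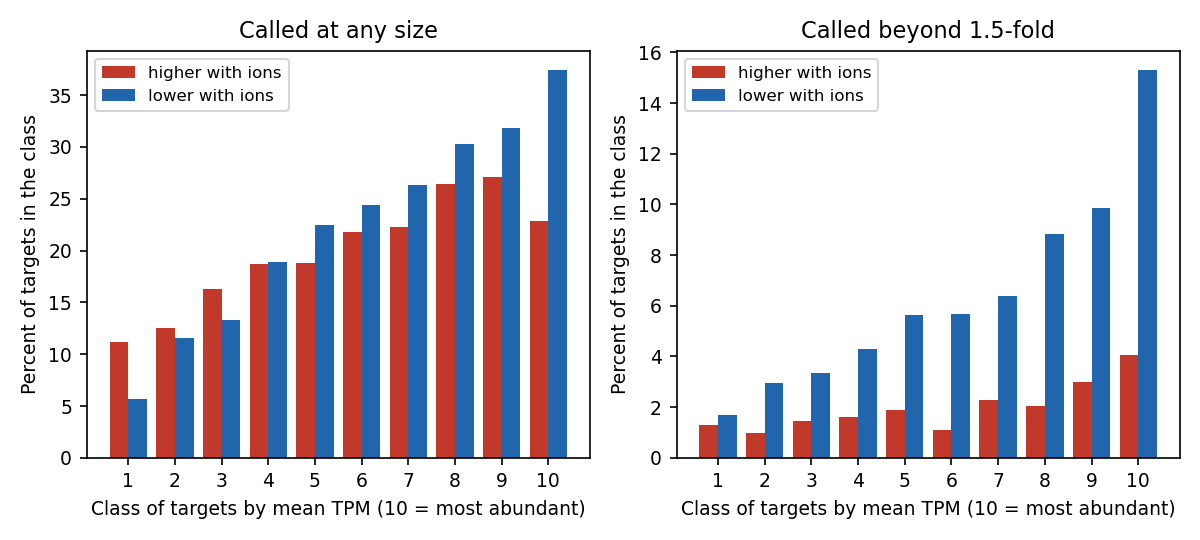
Bars give the percent of tested targets called higher or lower with ions in each of 10 classes of the targets by mean TPM, at any size of change (left) and beyond 1.5-fold (right). In the most abundant class 37.4% were lower and 22.8% higher, and beyond 1.5-fold 15.3% were lower and 4.05% higher.

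Ranked by level in control, the 10 most abundant targets gave edgeR 0 calls, with 0 at an unadjusted p under 0.05, and DESeq2 also called 0. Together they held 12.5% of TPM in the ion group and 12.2% in control. The absence of a call does not show equal levels. Of the 10 targets most abundant with ions, 7 of which were the same, 1 was called higher. Among the 100 most abundant in control, 47 were called lower and 7 higher, where 22.2% of all tested targets were called lower and 19.8% higher, and the median log2 fold change was -0.41. Among the 100 most abundant with ions, 29 were called lower and 16 higher. Among the 1000 most abundant, 471 were called lower and 125 higher (992 of them were tested), against the same 22.2% and 19.8%, with a median of -0.38. Targets chosen for a high level in one group would tend to lie lower in the other by the choice itself. The lists of the 100 most abundant targets in each group shared 80.

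Measured as a share of all transcripts, the called targets changed places. Those called lower held 23.7%, 19.4%, 20.4%, 24.1% and 20.6% of TPM in ion replicates 1, 3, 4, 5 and 6, against 39%, 38%, 36.5%, 36.1% and 42.4% in control replicates 1, 2, 4, 5 and 6. Those called higher held 23.3%, 28%, 27.1%, 22.3% and 23.5% in the same ion libraries, against 9.91%, 12.4%, 10.6%, 13.8% and 10% in the control libraries. Neither set had overlapping groups, as the choice of the targets on these libraries would produce, so no test is attached. The means were 21.6% ± 2.12 with ions and 38.4% ± 2.52 in control for the lower set, and 24.8% ± 2.54 with ions and 11.3% ± 1.7 in control for the higher set (SD, n = 5 each). Over all targets, group means differed by an amount equal to 21.9% of TPM.

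Neither LCO group took part in choosing these targets, and both were read on them. The lower set held 32.5% ± 1.92 of TPM at 1 mg/L LCO and 25.3% ± 1.66 at 10 mg/L (SD, n = 5 each), with no overlap between the doses (29.8% to 34.6% and 23.5% to 27.8%). The higher set held 13.7% ± 0.676 at 1 mg/L and 18.6% ± 0.856 at 10 mg/L, again with no overlap (12.8% to 14.4% and 17.6% to 19.9%). Without replicate 1 of LCO at 10 mg/L, that dose stood at 25.1% ± 1.87 on the lower set and 18.9% ± 0.726 on the higher (SD, n = 4). For the 979 targets called lower beyond 1.5-fold, the median log2 fold change over control was -1.46 with ions, -0.51 with LCO at 1 mg/L and -0.89 with LCO at 10 mg/L, all from a fit of the 20 libraries. For the 302 called higher, the medians were 1.49 with ions, 0.30 with LCO at 1 mg/L and 0.84 with LCO at 10 mg/L. Without replicate 1 of LCO at 10 mg/L, the medians at that dose were -0.91 for the lower targets and 0.82 for the higher. Over the 16163 targets of that fit they were 0.032, -0.034 and 0.0049. The control libraries are shared by these comparisons and took part in choosing the targets, and the ion values were chosen for their size.

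**Figure D3:**
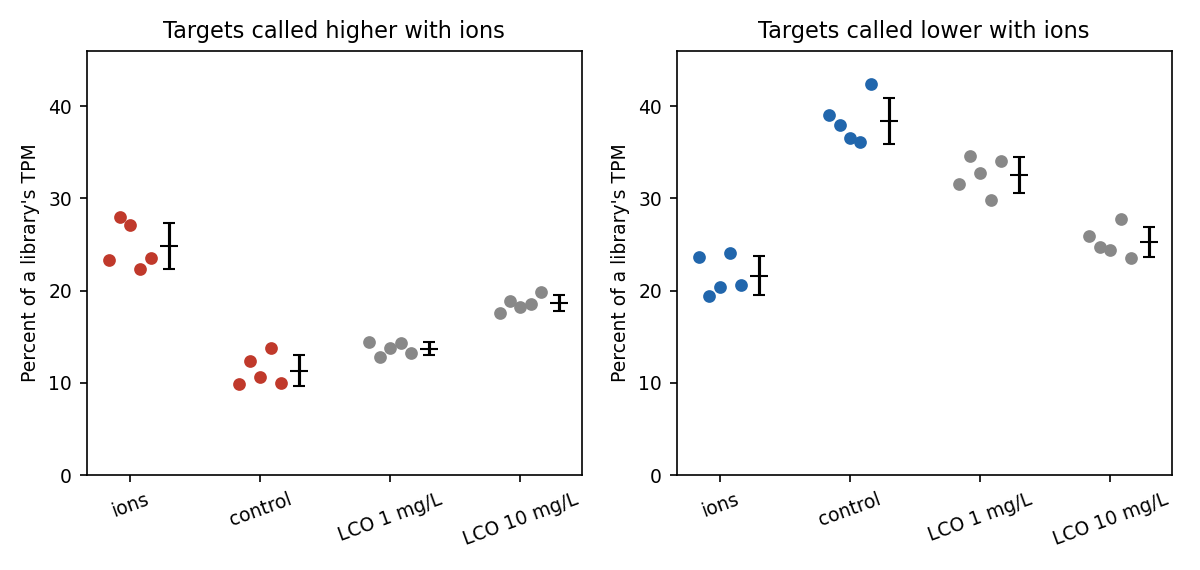
Points give the percent of each library's TPM on the targets called higher (left) or lower (right) with ions, with the mean and SD of 5 libraries beside each group. The ion and control libraries, coloured, were used to choose the targets and the LCO libraries, grey, were not. The lower set falls to 21.6% with ions, against 38.4% in control, and stands at 32.5% and 25.3% at the rising LCO doses.

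A small number of abundant transcripts held much of the difference between the group means, which includes targets that were not called. Of the summed decrease in mean TPM, the 10 targets that lost most accounted for 15.2% and the 100 that lost most for 44.1%. Of the summed increase, the top 10 accounted for 25.2% and the top 100 for 57.2%. Of the 10 targets that lost most, 6 were called lower and 4 were not called, where 22.2% of all tested targets were called lower. The summed level of these 6 was 6750 TPM ± 2140 with ions and 25600 ± 3280 in control (SD, n = 5 each). It stood at 4940 to 9210 TPM in the ion libraries and 23600 to 31400 in the control libraries. Of the 10 that gained most, 5 were called higher and 5 were not called, where 19.8% of all tested targets were called higher. Those called had a summed level of 43900 TPM ± 10300 with ions and 9750 ± 4400 in control, and libraries at 31800 to 57000 against 4000 to 15600. Targets ranked by the size of their change had to differ, so nothing is read from the counts of called targets, and these sums are descriptions.

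The single largest gain was in a target at 23700 TPM ± 5520 with ions and 5550 ± 3940 in control (log2 fold change 2.07, SE 0.49, adjusted p 0.0082 in edgeR's quasi-likelihood test). Its ion libraries stood at 17500, 23500, 20100, 31900 and 25500 TPM, against 11200, 3450, 8130, 2940 and 2030 in the control libraries, so the groups did not overlap but control replicate 1 was the highest of its group. Its counts were fractional, which marks reads divided between similar targets, and its level is uncertain for that reason. In the LCO libraries it stood at 3190 to 17400 TPM at 1 mg/L and at 24800 to 27500 at 10 mg/L.

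Of the 10 targets that lost most TPM, 4 were lower with ions than with LCO at 10 mg/L in a direct test, 2 of them by over 4-fold. The share of all targets that differed in this test is not given here, so nothing is read from the count of 4. The first of these 2 averaged 10500 TPM ± 4560 with ions and 16300 ± 3150 in control (SD, n = 5 each), and the groups overlapped (log2 fold change -0.61, SE 0.29, adjusted p 0.11 in edgeR's quasi-likelihood test). In the libraries of LCO at 10 mg/L it stood at 37000 to 59300 TPM. The test of ions against LCO at 10 mg/L gave a log2 fold change of -2.22 with an adjusted p of 0.00012, from edgeR on all 20 libraries. The other averaged 4880 TPM ± 1730 with ions and 7360 ± 1830 in control (log2 fold change -0.65, adjusted p 0.073). It stood at 18700 to 30500 TPM in LCO at 10 mg/L, a log2 fold change of -2.43 for ions against that dose with an adjusted p of 5.2e-05. Without replicate 1 of LCO at 10 mg/L the values were -2.31 (edgeR adjusted p 0.00014) and -2.53 (9.3e-05). The remaining 2 of the 4, both called lower against control, had log2 fold changes of -1.02 and -1.06 against that dose (edgeR adjusted p 0.045 and 0.023), and without that replicate -0.77 and -0.91 (0.13 and 0.056), no longer past the threshold. The first 2 targets were singled out after their values in the LCO libraries were seen. All 10 were ranked by their decrease in these same ion libraries, which favours low ion values. The tests against LCO at 10 mg/L are therefore not independent of that choice.

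Named targets were limited to 2 in each direction, those with the largest fold change among targets called beyond 1.5-fold with whole counts, a mean of at least 10 TPM in both groups and no overlap between the groups. The rule left 110 higher and 495 lower targets to choose from. KZS03586, 976 bases long, stood at 107, 161, 135, 115 and 98.5 TPM in ion replicates 1, 3, 4, 5 and 6, against 5.74, 19.5, 11.4, 23.8 and 12 TPM in control replicates 1, 2, 4, 5 and 6. All ion libraries lay far above all control libraries. Its log2 fold change was 3.03 (SE 0.32, adjusted p 0.00047 in edgeR's quasi-likelihood test). It was at 14.9 to 29.3 TPM in LCO at 1 mg/L and 33.1 to 69.8 TPM in LCO at 10 mg/L. The test of ions against LCO at 10 mg/L gave a log2 fold change of 1.21 (SE 0.27) with an edgeR adjusted p of 0.0076, and 1.22 (adjusted p 0.017) without replicate 1 of LCO at 10 mg/L.

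KZS16074, 1642 bases long, stood at 352, 330, 359, 136 and 329 TPM in the ion libraries, against 28.8, 28.4, 56.9, 37.8 and 34.5 TPM in the control libraries. Ion replicate 5 was well under the other ion libraries and above every control. The log2 fold change was 2.90 (SE 0.3, edgeR adjusted p 0.00047). The LCO libraries lay near the controls, at 19.5 to 31.9 TPM at 1 mg/L and 47.8 to 66.8 TPM at 10 mg/L. Ions exceeded LCO at 10 mg/L by a log2 fold change of 2.41 (SE 0.24, edgeR adjusted p 5.2e-05), and by 2.49 (adjusted p 9.3e-05) without replicate 1 of that dose.

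KZS13712, 979 bases long, stood at 8.72, 5.85, 3.6, 44.4 and 9.57 TPM in the ion libraries, against 109, 553, 200, 411 and 512 TPM in the control libraries. Here too ion replicate 5 lay nearest to the controls, which themselves spread widely. The log2 fold change was -4.65 (SE 0.78, edgeR adjusted p 0.0018), and -5.74 without ion replicate 5. LCO libraries ran from 19.6 to 263 TPM at 1 mg/L and from 1.97 to 43.8 TPM at 10 mg/L. At 10 mg/L the 43.8 was replicate 1, and the other libraries reached at most 17.3 TPM. The difference between ions and LCO at 10 mg/L, -0.27 on the log2 scale with an SE of 0.77, did not pass the test (edgeR adjusted p 0.83), and with that error it does not show equal levels. It was 0.46 (adjusted p 0.71) without replicate 1 of that dose and -1.37 (adjusted p 0.17) without ion replicate 5.

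KZS13492, 2212 bases long, stood at 2.73, 2.41, 2.13, 37.7 and 8.4 TPM in the ion libraries, against 41.1, 362, 60.4, 209 and 316 TPM in the control libraries. Ion replicate 5 came close to control replicate 1, the lowest control. The log2 fold change was -4.22 (SE 1, edgeR adjusted p 0.0087), and -5.70 without ion replicate 5. It was lower still at 10 mg/L LCO, at 0.816 to 2.06 TPM, and ranged from 9.07 to 280 TPM at 1 mg/L. Ions exceeded LCO at 10 mg/L by a log2 fold change of 2.93 (SE 0.93, edgeR adjusted p 0.03), by 3.11 (adjusted p 0.048) without replicate 1 of that dose, and by 1.44 (adjusted p 0.17) without ion replicate 5, which no longer passed the test. Both lower targets reach a mean of 10 TPM with ions only through ion replicate 5, so the rule itself favoured targets in which that library is high. The ion libraries were used to choose these 4 targets, so their differences from LCO are not independent of the choice.

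**Figure D4:**
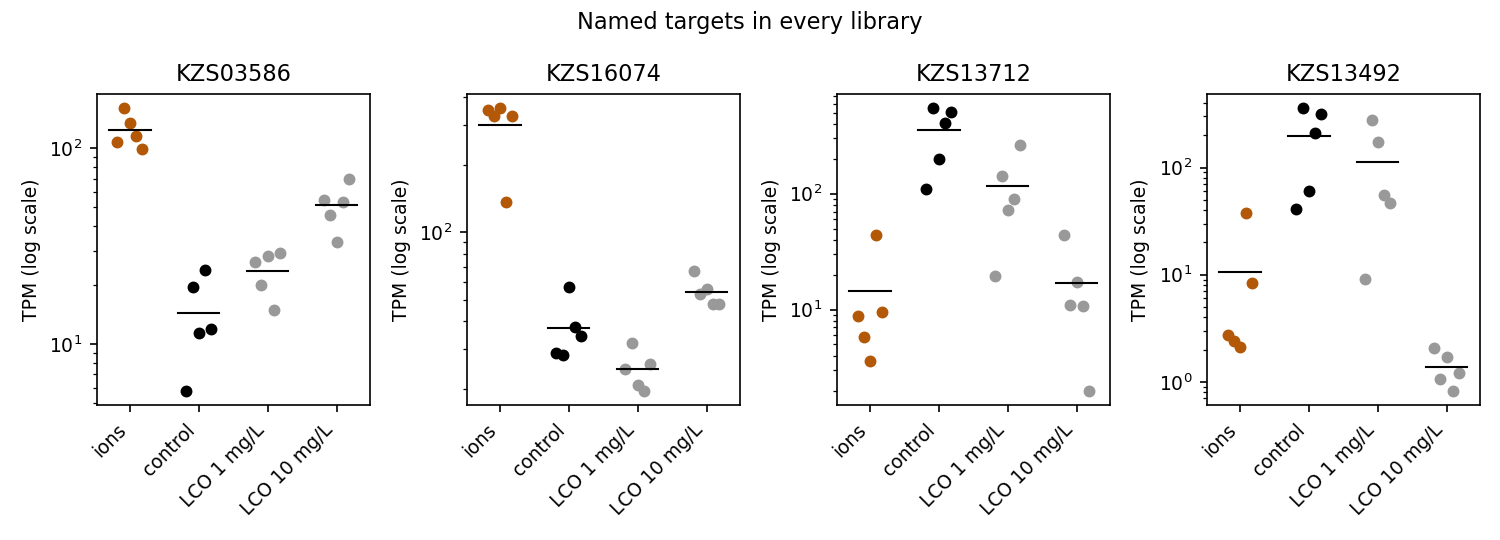
TPM of the 4 named targets in every library on log axes, with a line at the mean of each group of 5. KZS03586 and KZS16074 are higher with ions than in control and KZS13712 and KZS13492 lower, and in the last 3 of these ion replicate 5 is the ion library nearest to the controls.

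The deepest decreases were found in transcripts that varied widely between control pools and, to a lesser degree, between ion pools. The 176 targets called lower by over 8-fold had a median SD of 0.953 among ion libraries and 1.73 among control libraries on the log2 CPM scale (CPM, counts scaled to library size). Over all tested targets the median SDs were 0.311 among ion libraries and 0.28 among control libraries. Their median TPM was 1.74 with ions and 34.4 in control. Relative to the control mean, their median log2 CPM lay at -3.68, -3.78, -4.03, -2.20 and -3.42 in ion replicates 1, 3, 4, 5 and 6, and at -1.12, 0.78, -1.08, -0.16 and 1.19 in control replicates 1, 2, 4, 5 and 6. Control replicates 1 and 4 thus lay between the other controls and the ion libraries. The groups did not overlap for 105 of the 176 (59.7%), where 15.3% of all tested targets lay lower with no overlap. The 1164 targets lower by 2-fold to 8-fold varied less, with a median SD of 0.469 among ion libraries and 0.331 among control libraries, and no overlap for 877 (75.3%). The targets of both sets were chosen on these libraries by the size of their change, which can itself favour targets that vary. Nothing is therefore read from those shares, and the SDs are descriptions.

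Large increases were uneven among the ion pools. The 18 targets called higher by over 8-fold lay at a median of 6.01, 5.57 and 3.24 above the control mean in log2 CPM in ion replicates 3, 5 and 6. They lay at 0.938 and 1.13 in ion replicates 1 and 4. The control libraries stood between -0.708 and 0.95, so control replicate 1, at 0.95, was level with ion replicate 1. Of the 18, 8 had no overlap between the groups, where 9.9% of all tested targets lay higher with no overlap, and the 18 were called on these libraries. The 841 targets higher by over 2-fold were more even, at 1.28, 1.57, 1.57, 0.781 and 1.34 in the ion libraries and -0.318 to 0.471 in the control libraries.

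Single pools differed in how far they had moved. For each library, targets called beyond 1.5-fold were found in a fit without it, and its median log2 CPM difference from the other control libraries was then read on them. On the higher targets, ion replicates 1, 3, 4 and 6 lay at 1.25, 1.79, 1.58 and 1.65, and ion replicate 5 at 0.563. On the lower targets the same 4 lay at -1.52, -1.79, -2.04 and -1.69, and ion replicate 5 at -0.68. Each of these values is read on its own set. On the sets found without ion replicate 5, the mean of the other 4 ion libraries lay at a median of 1.29 and -1.44. Those 4 took part in choosing these sets. Among the control libraries, values on the lower targets lay between -0.255 and 0.117. On the higher targets they lay between -0.198 and 0.139, except for control replicate 5 at 0.694. That is above the 0.563 of ion replicate 5, but on a different set of targets. On the 841 targets called higher by over 2-fold, ion replicate 5 lay at 0.781 and control replicate 5 at 0.471 from the control mean. Both libraries took part in choosing those 841. The sets found without each library differ, from 109 to 695 higher and from 369 to 1546 lower targets, so small differences between libraries are not comparable.

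**Figure D5:**
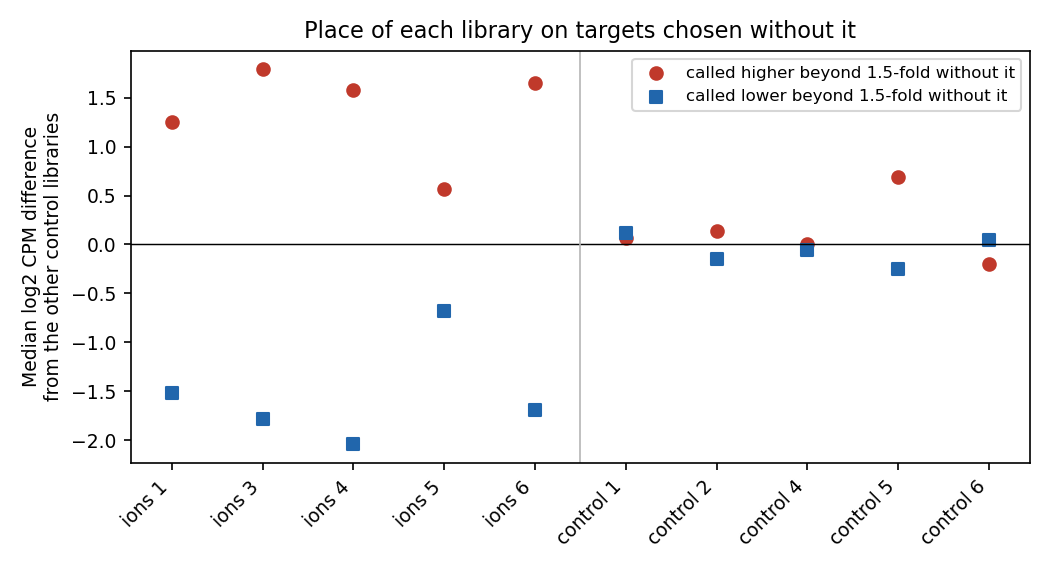
For each library, points give the median log2 CPM difference from the other control libraries over targets called higher (circles) or lower (squares) beyond 1.5-fold in a fit that left the library out. Ion replicate 5 lies at 0.563 and -0.68, nearer to 0 than the other ion libraries on their own sets, and control replicate 5 lies at 0.694 on the higher targets.

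The groups separated on average, but not pair by pair, when whole profiles were compared. The share of TPM that differs between a pair of libraries was 9.49% to 20.3% within the ion group (median 14.55%, 10 pairs) and 6.33% to 20.6% within control (median 15.95%, 10 pairs). Between ion and control libraries it was 18.7% to 31.5% (median 24.6%, 25 pairs). The closest pair across the groups, ion replicate 1 and control replicate 5, was therefore closer than the most distant pairs within either group. Every ion library was on average closer to the other ion libraries (13.9% to 16.5%) than to control (22.3% to 28.1%). Likewise every control library was on average closer to the other controls (13.6% to 18.6%) than to the ion libraries (21.7% to 28.1%). Of the tested targets, 147 stood 8-fold or more above every other control library in control replicate 1, where the other 9 libraries had 0 to 10 such targets within their groups. Of the 147, 27 (18.4%) were called lower with ions, against 22.2% of all tested targets.

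None of 5 measures of whole libraries passed the test after adjustment. After thinning each library to the smallest total, 18760 targets ± 79.9 had a count with ions and 18560 ± 111 in control (SD, n = 5 each). The difference of 201 had p = 0.032 in an exact two-sided permutation test, and 0.16 after Benjamini-Hochberg adjustment over 5 measures. The 100 most abundant targets of a library held 41.1% ± 1.79 of TPM with ions and 38.8% ± 2.21 in control (exact permutation p = 0.11, adjusted 0.19). The effective number of targets, the number of equally abundant targets with the same Shannon entropy, was 1552 ± 112 with ions and 1713 ± 163 in control (exact permutation p = 0.11, adjusted 0.19). The TPM-weighted mean target length was 1463 ± 46.7 bases with ions and 1441 ± 48.1 in control (exact permutation p = 0.48, adjusted 0.48). Targets with a fractional count held 11.8% ± 0.864 of the counts with ions and 11.4% ± 0.62 in control (exact permutation p = 0.4, adjusted 0.48). The smallest p this design allows is 0.00794, so a difference that fully separated the pools could have passed.

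The balance of directions varied with target length. The tested targets were ranked by length into 5 classes of equal size. In the shortest class (123 to 906 bases), 16.9% were called higher and 18.5% lower. In the next class (906 to 1540 bases), 15.2% were called higher and 26.2% lower, and in the longest class (4020 to 60700 bases) 24.6% were higher and 18.6% lower. In the classes of 1540 to 2380 and 2380 to 4020 bases, 19.7% and 22.5% were higher and 25.1% and 22.6% lower. Over all tested targets, 19.8% were called higher and 22.2% lower. Longer targets draw more counts at the same level, so the totals called in different classes are not comparable as effects. The median length was 2280 bases for the higher targets and 1855 for the lower, against 1910 over all tested targets. Beyond 1.5-fold, lower targets outnumbered higher ones in each of the 5 classes, as they did over all tested targets (6.4% lower and 1.97% higher). In the longest class 151 (4.93%) were lower and 56 (1.83%) higher. Fractional counts marked 23.6% of the targets called higher, 15.4% of those called lower and 22.1% of all tested.

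Targets with neighbouring identifier numbers tended to change in the same direction. Where a target was called lower beyond 1.5-fold, the target with the next number was also called lower in 14.7% of 803 pairs, against 7.14% over all 11037 pairs of consecutive tested numbers. For higher targets the shares were 8.66% of 231 pairs and 2.13%. At a distance of 10 numbers they were 5.67% for lower targets, against 6.92% over all such pairs, and 4.02% for higher targets, against 2.04%. Among targets with whole counts, where no reads were divided, consecutive numbers gave 13.5% for lower targets, against 7.8%, and 6.92% for higher targets, against 2.01%. Runs of 3 or more consecutive numbers held 49 of the 979 lower targets, in 15 runs of at most 4, and 3 of the 302 higher ones. One run of 4 lower targets with whole counts summed to 442, 343, 312, 482 and 326 TPM in the ion libraries, against 1100, 1110, 857, 1000 and 932 TPM in the control libraries. The files do not say how the numbers were assigned or where the targets lie in the genome.

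Loss or gain of a transcript from all pools was rare at a measurable level. No count was recorded in any ion library for 1067 targets that had a count in control, but 746 of these were counted in a single control library and 5 in all control libraries. Their summed control count exceeded 100 for 12 targets, and for 10 of these control replicate 1 held the highest count. In the other direction, 870 targets had a count with ions and none in control, 605 of them in a single ion library, 6 in all ion libraries, and with at most 21 counts in sum. The filter on low counts left 0 of these targets in the test. A count of 0 in a library allows up to 3 counts, which covers counting error only.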

How the data were processed

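The members and the rule for named targets were chosen with earlier results of these data known. The authors deposited 1 table per library with estimated counts per target, not normalized, and TPM, scaled by effective length to the same sum in each library, per the file headers. Target and effective lengths in bases stand beside them. For the counting program, the annotation and the build: not given in the sources used here. Between 88.2% and 90.2% of the values in a library were exactly whole as deposited (tolerance 0), and 22.1% of the tested targets had a fractional count in at least 1 of the 10 libraries.

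Rounded estimated counts entered edgeR 4.0.16 (R 4.3.3): filterByExpr on the 2 groups (minimum count 10, minimum total 15), TMM scaling, a quasi-likelihood fit of the 10 libraries on group alone, glmQLFTest and glmTreat (1.5-fold), two-sided, with Benjamini-Hochberg adjustment over 15304 targets. The LCO libraries were kept out of this fit, so that its spread comes from the compared groups alone. They enter a second fit of all 20 libraries (16163 targets). SEs are the size of a log2 fold change over the root of its F statistic. Log2 CPM used a prior count of 2. The code was tested on simulated counts. No 2 replicates of a group agreed within sampling noise (smallest chi-square per degree of freedom 34.1).

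For replicate 1 of the higher LCO dose, title and treatment tag differ, and the title set the group. Named targets were at most 2 higher and 2 lower, those with the largest fold change among targets called beyond 1.5-fold with no overlap between groups, a mean of 10 TPM or more in both groups and whole counts in all 10 libraries. Library measures were compared by exact permutation over all 252 splits. Alternatives were DESeq2 1.42.0 size factors and Wald test, other filters, all 20 libraries, a replicate block, limma 3.58.1 on log2(TPM + 1), thinning to the smallest total, whole counts only, and leaving out libraries. Figures were drawn with matplotlib 3.10.9.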

Additional observations from a re-analysis of the deposited data

Results flagged for a closer look

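In 30 groups of 5 values, 5 had a library whose gap to its nearest neighbour exceeded 0.71 of the group's range. Chance gives about 1 in 20, but the values of named targets are not chance draws. Ion replicate 5 was that library in 3 of the 4 named targets. Its TPM of KZS16074 was 136, against 329 to 359 in the other ion libraries (ratio 0.866). Its TPM of KZS13712 was 44.4, against 3.6 to 9.57 in the others (ratio 0.854), and of KZS13492 it was 37.7, against 2.13 to 8.4 (ratio 0.823). In each case ion replicate 5 lay on the side of the controls. These 3 values come from 1 library and are not separate observations of it. KZS13712 and KZS13492 reach the mean of 10 TPM that the naming rule asks for only through ion replicate 5, so the rule itself favoured such targets.

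Control replicate 4 had the lowest effective number of targets of its group, 1432, against 1722 to 1829 in the other control libraries (ratio 0.73). Control replicate 1 held 1.26% of its count on targets too sparse elsewhere to be tested, against at most 0.145% in the other control libraries (ratio 0.927).

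Ions and LCO at 10 mg/L differed in a direct test for 3 named targets (edgeR, all 20 libraries), which were chosen on the ion libraries. The share of all targets that differed in that test is not given here, so nothing is read from the count of 3. The log2 fold change of ions over LCO at 10 mg/L was 1.21 for KZS03586, 2.41 for KZS16074 and 2.93 for KZS13492. All 3 were higher in every ion library than in every library of LCO at 10 mg/L. The value of KZS13492 follows in part from the naming rule's minimum in the ion group, and it was 1.44 (edgeR adjusted p 0.17) without ion replicate 5.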

How the results depend on the processing

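The count of 6425 called targets stayed within 1.5 times under every alternative but the replicate block, from 4384 to 8100. The count of 1281 beyond 1.5-fold depended more on the processing. It was 2007 with all 20 libraries in a single fit, 448 with limma on log2(TPM + 1), and 2070 without both control replicate 1 and ion replicate 5. Leaving out 1 library gave 481 to 2257. The cause was not tested. Lower targets were the majority beyond 1.5-fold in every fit that made calls, while at any size 42.2% to 54.7% of the called targets were higher. The groups share the replicate numbers 1, 4, 5 and 6, but same-numbered libraries did not deviate together (correlations of -0.27, -0.26, -0.45 and 0.18, and 0 of 4 ion libraries matched best with their own number). With the number as a replicate block, edgeR called 0 targets and 0 beyond 1.5-fold, with 5090 at an unadjusted p under 0.05 and a smallest adjusted p of 0.054. The block leaves fewer samples and degrees of freedom. The same 8 libraries without that term, an alternative chosen after seeing the data, gave 4384 and 225. Each named target kept its direction in all 21 alternatives, and under the block each had an adjusted p of 0.054. Without ion replicate 5, KZS13712 and KZS13492 had log2 fold changes of -5.74 and -5.70, against -4.65 and -4.22. In alternatives chosen after seeing the data, the log2 fold change of ions over LCO at 10 mg/L for KZS13712, -0.27, turned to 0.46 without LCO 10 mg/L replicate 1 and was -1.37 without ion replicate 5, and none of these passed the test.

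Library measures were less stable. The difference in targets detected turned to -68.2 without thinning, which leaves the shallower ion libraries at their own depth, and leaving out 1 library gave 168 to 246 (246 without control replicate 1, adjusted p 0.04). The difference in effective number turned to 50.9 without the 10 most abundant targets and was -231 to -121 with 1 library left out. That of the top 100 targets' share was 1.68 to 3.23 percentage points. Without control replicate 4 these last 2, -231 and 3.23, each had an adjusted p of 0.04 by exact permutation. Depth limits what can be said of targets with few counts.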
